A study of Arabidopsis thaliana with 12 samples.

Results

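BSMT1 (AT3G11480) and JMT (AT1G19640) are the Arabidopsis enzymes that make the volatile esters methyl salicylate and methyl jasmonate. They are 2 of 13356 genes that had a probe set of their own on the arrays, and each was read by 1 probe set. The pair was chosen by its measured levels over the 6 groups of the study, so those levels and their differences are given as a description, without a test. Leaf RNA of Arabidopsis thaliana was hybridised to Affymetrix arrays, 1 array per sample. The groups were Ws, Col(gl) and Col plants given 100 mM NaCl, and Ws, Col(gl) and Col plants given 0 mM NaCl, with 2 arrays per group that the study calls biological replicates, 12 arrays in all. All plants grew in soil with diluted nutrient solution and were 20 days old, counted from sowing, when leaves were taken. Salt began 14 days after sowing and was raised by 50 mM every 2 days, so salted plants had received it for 6 days. Ws stands for Wassilewskija and Col for Columbia, both common laboratory accessions. The labels do not say how Col(gl) differs from Col or how many plants went into a sample, and they state that the Col scans are identical to scans deposited under other records.

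Both enzymes belong to the SABATH family, which moves a methyl group from S-adenosylmethionine to the carboxyl group of small acids. BSMT1 acts on salicylate and benzoate, and methyl salicylate is known as a mobile and airborne signal in defence against pathogens and insects. JMT acts on jasmonate, a hormone of wounding, defence and fertility, whose active form is its isoleucine conjugate rather than the methyl ester. Esterases of the MES family can turn the methyl esters back into the free acids.

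Values are log2 RMA signals, in which 1 unit is a doubling of the signal of a probe set. Array medians lay between 6.15 and 6.38 and lower quartiles between 4.19 and 4.42, and a signal at or under its array's quartile is treated here as not distinguished from background. Replicate 1 of salted Ws and of salted Col stood apart from the other 10 arrays. Their median signal over 69 plastid-encoded probe sets was 8.73 in Ws and 9.48 in Col, against 10.3 to 11.8 on the others. Their actin control probes differed by 1.98 and 1.65 between the 3' and the 5' end of the transcript, against at most 1.14 on the others. Among those 10, both unsalted Col(gl) arrays had the lowest plastid medians, 10.34 and 10.35. They also had the largest actin differences, 1.14 and 1.09. The part of this in the Col(gl) differences was not tested. As the samples are whole leaves, more transcript per cell and more cells of a type cannot be told apart. Of the markers fixed for leaf, RCA and LHCB4.1 were measured, 2 of 15, and read 13.4 to 14.1 on all arrays. The root hair markers EXPA7 and EXPA18, 2 of 6 root markers, read 4.16 to 4.87, near the quartile. Both were called lower with salt in Col, that is, passed limma at an adjusted p under 0.05 over all probe sets. In Col 37.5% of all probe sets were called in either direction, and 4796 of 22746 were called lower. The differences were -0.47 ± 0.15 for EXPA7 (limma, adjusted p = 0.0359) and -0.56 ± 0.11 for EXPA18 (limma, adjusted p = 0.00411). The part of these markers in the Col results was not tested.

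BSMT1 was near background in unsalted Ws and in Col(gl), had a low level in unsalted Col, and was high in salted Ws. In salted Ws it read 8.92 on replicate 1 and 8.40 on replicate 2, against 4.1 and 3.89 in unsalted Ws. Both unsalted readings lay under the lower quartile of their array. The salted mean exceeded the unsalted mean by 4.67 ± 0.54 (log2, ± SE of the fit), a 25.4-fold difference in signal. With unsalted readings raised to the lower quartile of their array the difference was 4.34, a 20.3-fold difference in signal. The quartile is a chosen floor, so this value is not a lower bound. Of 22746 probe sets, 8 had a higher difference with salt in Ws. As BSMT1 was chosen by its levels on these arrays, this rank follows in part from the choice and supports nothing.

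**Figure D1:**
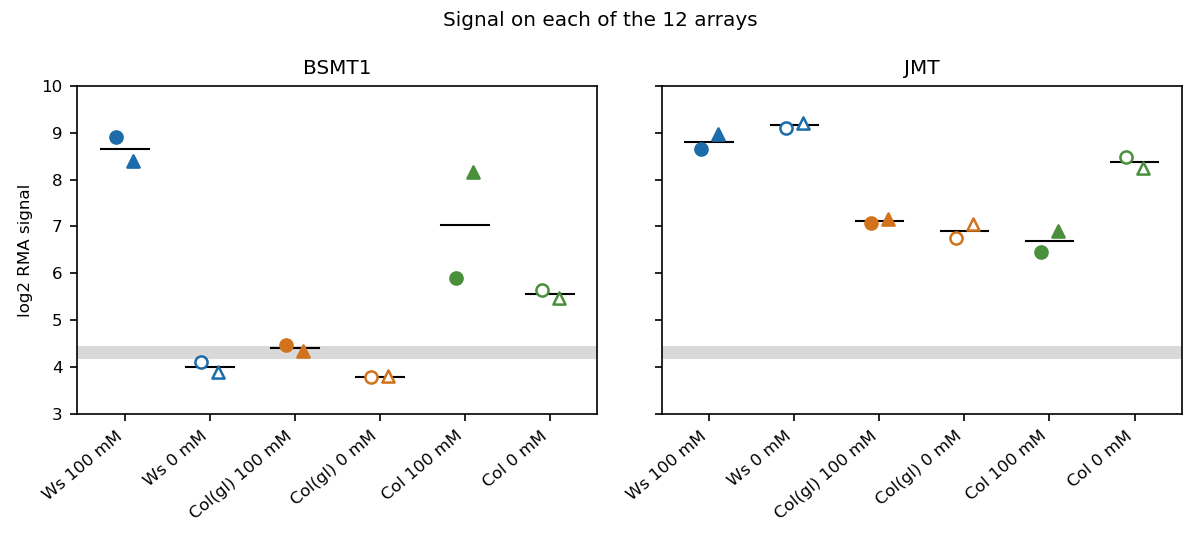
log2 RMA signal of BSMT1 (left) and JMT (right) on each array, with circles for replicate 1, triangles for replicate 2, filled symbols for 100 mM and open symbols for 0 mM NaCl, and bars at the group means. The grey band spans the lower quartiles of the arrays, 4.19 to 4.42. BSMT1 in salted Ws lies between 8.40 and 8.92, above every other array, and the salted Col arrays lie far apart at 5.89 and 8.15. JMT is highest in Ws at either salt level and lowest in salted Col.

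In Col the salted arrays did not give 1 answer for BSMT1. Replicate 1 read 5.89 and replicate 2 read 8.15 with salt, against 5.64 and 5.48 without. Both salted arrays were above both unsalted ones, replicate 1 by as little as 0.25. The mean difference of 1.46 ± 0.54 therefore describes neither array. It was 2.59 without replicate 1 of salted Col and 0.33 without replicate 2. A gap of 2.26 or more between the salted Col arrays was seen in 77 of 22746 probe sets, or 0.339%. Replicate 1, the lower of the pair, is an array with low plastid-encoded signal and a wide actin difference. In salted Ws the replicate 1 array, which had both features too, carried the higher BSMT1 reading of its pair. The part of these array features in the result was not tested.

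In Col(gl) BSMT1 stayed near background with salt. The salted arrays read 4.47 and 4.34, against 3.79 and 3.8 on the unsalted arrays. The salted readings lay 0.20 and 0.06 above the lower quartile of their arrays, and the unsalted ones lay under it. The measured difference was 0.61 ± 0.54, and it shrank to 0.05 with readings raised to the quartile.

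JMT had a clear signal on every array, at least 2.23 above the lower quartile, and its main contrasts were between genotypes and within Col. In Col it read 6.45 on replicate 1 and 6.91 on replicate 2 with salt, against 8.49 and 8.26 without. The groups were apart by 1.35 at their closest, and the difference of means was -1.70 ± 0.18, a signal 3.24 times higher in unsalted Col. Of all probe sets, 224 of 22746, or 0.985%, had a lower difference with salt in Col. This rank too follows in part from the choice of JMT by its levels. The JMT difference in Col was -1.47 without replicate 1 of salted Col and -1.92 without replicate 2, and it stood on both salted arrays.

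In Ws and Col(gl) the JMT differences with salt were small. Salted Ws read 8.66 and 8.97, against 9.11 and 9.20 in unsalted Ws, a difference of -0.34 ± 0.18. Without replicate 1 of salted Ws, the array with the lower JMT reading, it was -0.19. Salted Col(gl) read 7.07 and 7.15, against 6.75 and 7.06 in unsalted Col(gl), a difference of 0.20 ± 0.18. The closest salted and unsalted Col(gl) arrays were 0.01 apart, so these groups touch.

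**Figure D2:**
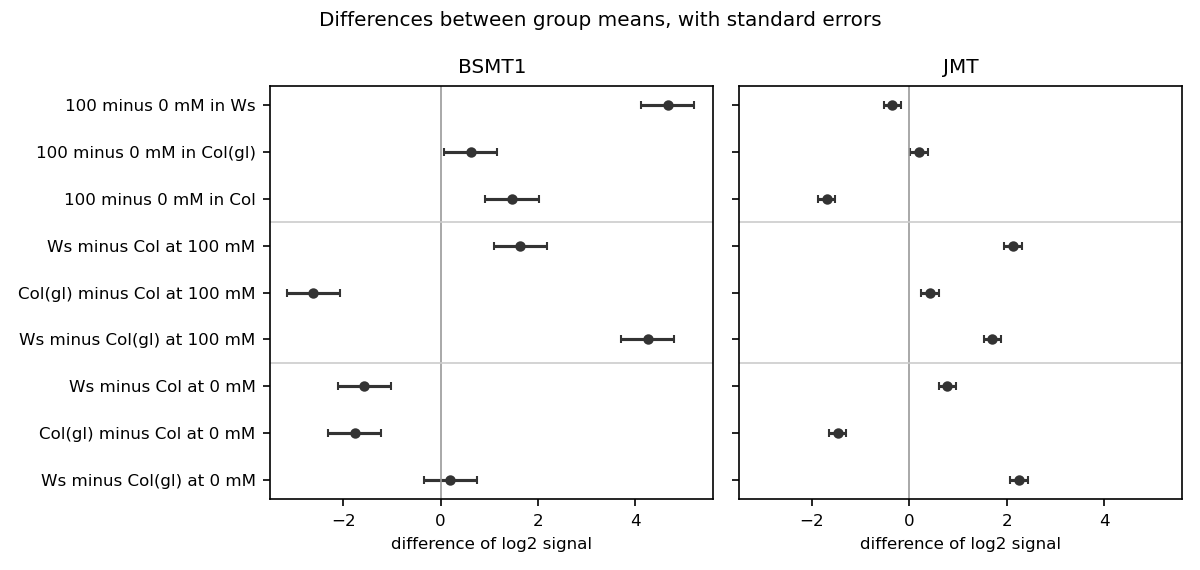
Differences between group means of log2 RMA signal for BSMT1 (left) and JMT (right), with standard errors of the fit over all 12 arrays, for 100 minus 0 mM NaCl in each genotype, then between genotypes at 100 mM and at 0 mM. BSMT1 differs most with salt in Ws (4.67), and JMT differs between Ws and Col(gl) at either salt level (1.70 and 2.25).

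The unsalted groups of the genotypes differed in the signal of both genes. Whether the probes bind transcripts of Ws and Col alike was not tested, here or in the other comparisons of genotypes. Unsalted Col had more BSMT1 signal than either other genotype. The difference was -1.57 ± 0.54 for Ws minus Col and -1.77 ± 0.54 for Col(gl) minus Col, and -1.24 and -1.20 with readings raised to the quartile. Unsalted Ws and Col(gl), both under the quartile, cannot be ranked. JMT followed another order, with Ws above Col by 0.78 ± 0.18 and Col(gl) below Col, at a difference of -1.47 ± 0.18 (log2). The JMT level of unsalted Col(gl) was thus at that of salted Col, 6.75 and 7.06 beside 6.45 and 6.91, and these ranges overlap.

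With salt, BSMT1 separated the genotypes more widely than without. Salted Ws exceeded salted Col(gl) by 4.25 ± 0.54, with 3.93 between the closest arrays, and salted Col(gl) was below salted Col, at a difference of -2.62 ± 0.54, with 1.42 between the closest arrays. Salted Ws exceeded salted Col by 1.64 ± 0.54, yet the closest arrays, 8.40 and 8.15, were only 0.25 apart. JMT in salted Ws exceeded salted Col by 2.13 ± 0.18 and salted Col(gl) by 1.70 ± 0.18. Salted Col(gl) and salted Col differed in JMT by 0.43 ± 0.18, with 0.16 between their closest arrays.

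In order of mean BSMT1 signal, the groups ran from salted Ws (8.66) over salted Col (7.02), unsalted Col (5.56), salted Col(gl) (4.41) and unsalted Ws (3.99) to unsalted Col(gl) (3.79). A step was counted as larger than the spread where it exceeded the larger gap between the 2 arrays of either neighbour. The steps on either side of salted Col, 1.64 and 1.46, did not exceed the gap of 2.26 between its own arrays, and neither did the last step of 0.20. The order for JMT was unsalted Ws (9.16), salted Ws (8.81), unsalted Col (8.37), salted Col(gl) (7.11), unsalted Col(gl) (6.91) and salted Col (6.68). Its upper 3 steps exceeded the spread, the step within Ws narrowly (0.34 against 0.31), and the steps among the lowest 3 groups did not.

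The genes of the ester-forming enzymes showed different patterns over the same leaves. The highest BSMT1 group, salted Ws, was also high in JMT, and the group with the largest JMT difference with salt, Col, had a split BSMT1 response. Over the 12 arrays, which share groups and are not independent, Pearson's r between the genes was 0.18 and Spearman's rho was 0.09.

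Genes with a pattern like that of each member were taken from 544 probe sets with a gene symbol and group means spanning at least 1 log2 unit. Likeness was measured as Pearson's r over the 12 arrays, with no p-value, since the arrays fall into 6 groups. Closest to BSMT1 was ALDH7B4 (AT1G54100), an aldehyde dehydrogenase of the turgor-responsive type, at r = 0.941. It read 11.3 and 11.9 in salted Ws and 11.1 and 11.7 in salted Col, against 9.44 and 9.54 in unsalted Ws and 10.4 and 10.1 in unsalted Col. In Col(gl), where BSMT1 was near background, it read 9.83 and 10.0 with salt and 9.19 and 9.05 without, all clear of background. SBT3.5 (AT1G32940), a subtilisin-type protease, followed at 0.920, LEA4-5 (AT5G06760), a late embryogenesis abundant protein, at 0.915, MGL (AT1G64660), a methionine gamma-lyase that breaks down methionine, at 0.914, and PRX52 (AT5G05340), a class III peroxidase, at 0.886.

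All 5 of these genes also read higher on replicate 2 than on replicate 1 of salted Col. Since they were picked by their correlation with BSMT1 over the same arrays, this side of the split follows in part from the choice and supports nothing. Their gaps were smaller than that of BSMT1: LEA4-5 read 8.03 and 8.80, and MGL 7.15 and 7.27. The genes most opposed to BSMT1 were GSTF4 (AT1G02950), a glutathione transferase, at r = -0.910, ALDH2C4 (AT3G24503), an aldehyde dehydrogenase of phenylpropanoid metabolism, at -0.849, and SGT1A (AT4G23570), a co-chaperone of immune receptors, at -0.779. GSTF4 read 5.09 and 5.18 in salted Ws, against 6.29 and 6.36 in unsalted Ws.

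**Figure D3:**
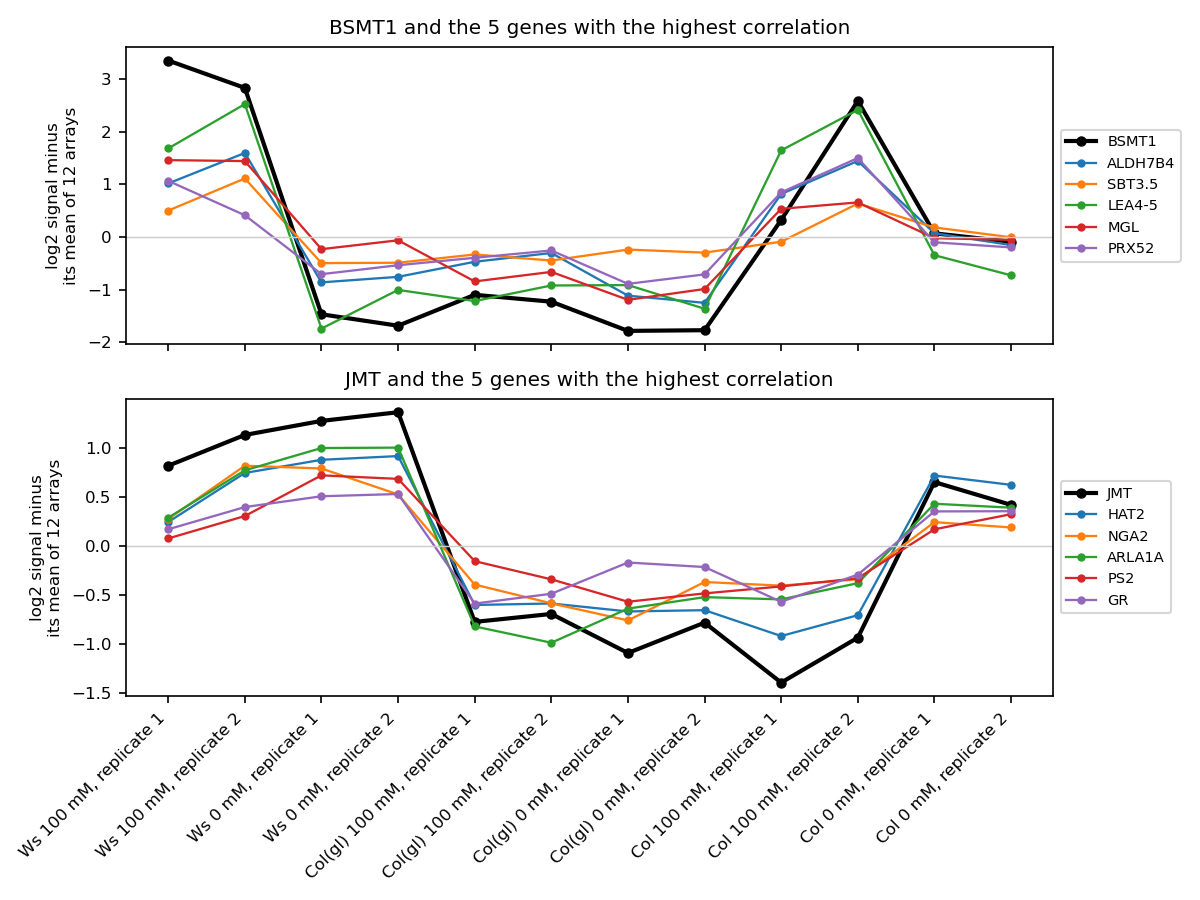
Signal of BSMT1 (top) and JMT (bottom) and of the 5 genes with the highest correlation to each, as log2 signal minus the gene's own mean of the 12 arrays, in array order by group, with lines joining the values of 1 gene. The genes like BSMT1 have their highest group means in salted Ws and salted Col, and the genes like JMT are high in Ws and unsalted Col.

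Closest to JMT was HAT2 (AT5G47370), a homeodomain-leucine zipper factor known to respond to auxin, at r = 0.972 (rho 0.972). It read 6.97 and 7.18 in salted Col, against 8.60 and 8.51 in unsalted Col. In Ws it stayed between 8.13 and 8.80, and in Col(gl) between 7.22 and 7.30, so that the same groups were high and low as for JMT. As HAT2 was picked by its correlation with JMT over these arrays, this follows from the choice and supports nothing. NGA2 (AT3G61970), a B3 factor of leaf and flower shape, reached 0.946, ARLA1A (AT5G37680), a small GTPase of the ARF-like type, 0.938, PS2 (AT2G29900), a presenilin, 0.935, and GR (AT3G54660), an organellar glutathione reductase, 0.929. Opposed to JMT were BZIP60 (AT1G42990), a factor of the unfolded protein response, at -0.942, COR15B (AT2G42530), a chloroplast protectant, at -0.934, and GTR1 (AT3G47960), a glucosinolate transporter, at -0.930. COR15B read 11.15 and 11.05 in salted Col, against 9.26 and 9.14 in unsalted Col, and 11.7 to 11.8 on all Col(gl) arrays.

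The summed signal of 3 markers of trichomes, the leaf hairs, was high and low in groups that in part match those of JMT. Of 10 such markers 3 were measured, TRY, GIS and SIM, and none was at or under the lower quartile of both arrays in any group. Their summed linear signal was 324 to 428 in salted Ws against 758 to 818 in unsalted Ws, and 228 to 235 in salted Col against 633 to 737 in unsalted Col. In Col(gl) it was 232 to 271 with salt and 248 to 254 without. Limma called 3 of 3 lower with salt in Ws, beside 16.6% of all probe sets called in either direction and 1695 of 22746 called lower. In Col limma called 2 of 3 lower (beside 37.5% in either direction and 4796 lower), and in Col(gl) 0 of 3 (beside 1.49% and 160). At an unadjusted p under 0.05 it had 0 of 3 in Col(gl), beside 14.8% of all probe sets. TRY, a repressor of hair fate, read 6.18 and 6.05 in salted Col, against 8.33 and 8.09 in unsalted Col. SIM, a cell cycle inhibitor of hair cells, did not have this pattern, at 6.51 and 6.45 in salted Col against 6.7 and 6.52 in unsalted Col, and it was highest in Col(gl), between 7.42 and 7.54. AT5G06700, a locus of the same list held under another name and left out of the sum, rose with salt in Ws by 0.67 ± 0.14 (limma, adjusted p = 0.0124). Like SIM, AT5G06700 was highest in Col(gl), between 9.74 and 9.93, against 8.96 to 9.20 in Col. The low sum in Col(gl) thus rested on TRY and GIS, while SIM and AT5G06700 went the other way. In Ws the sum differed with salt while JMT stayed high, and the part of leaf hairs in the JMT levels was not tested.

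The other SABATH loci were described on their own, since levels of different probe sets are not comparable. A list of 22 further family loci was written by hand, and 14 were measured under 1 gene. NAMT1 (AT5G04370), which methylates nicotinate, and 6 other loci were at or under the lower quartile on every array, 4 loci were above it on some arrays, and 3 were above it on all 12. Salt responses were tested with limma over all probe sets and called at an adjusted p under 0.05. In Ws, 0 of the 14 loci were called beside 16.6% of all probe sets. In Col(gl), 0 of 14 were called beside 1.49%, and in Col, 3 of 14 (21.4%) beside 37.5%. At an unadjusted p under 0.05, limma had 1 of 14 in Ws (30.2% of all probe sets), 1 of 14 in Col(gl) (14.8%) and 6 of 14 in Col (48.3%). The median difference of the 14 loci was -0.02 in Ws, -0.12 in Col(gl) and -0.18 in Col, beside -0.03, -0.02 and -0.13 over all probe sets.

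The called loci went both ways in Col. AT3G21950 read 7.82 and 7.19 in salted Col, against 6.28 and 6.18 in unsalted Col, and rose by 1.27 ± 0.18 (limma, adjusted p = 0.000523). In Ws this locus read between 4.38 and 4.51 at either salt level, close to background, while in Col(gl) it read 6.66 and 6.62 with salt and 7.40 and 7.23 without (difference -0.67 ± 0.18, adjusted p = 0.104 in limma). Its highest groups were thus Col and Col(gl), whereas JMT was highest in Ws. Whether the probes of this locus bind its Ws transcript as well as that of Col was not tested. AT4G36470 read 4.79 and 4.48 in salted Col, against 5.30 and 5.57 in unsalted Col, and fell by 0.80 on the log2 scale (limma, adjusted p = 0.00228). AT1G66720 fell by 0.40 in Col (limma, adjusted p = 0.0277), to 4.22 and 4.29, near the quartile; this call ended after quantile renormalization, with only the Col arrays in the fit, with both replicate 1 arrays of salted Ws and Col left out, and without any 1 of the 4 Col arrays. AT5G38780 and AT5G38020, with highest readings of 5.5 and 5.04, were not called.

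**Figure D4:**
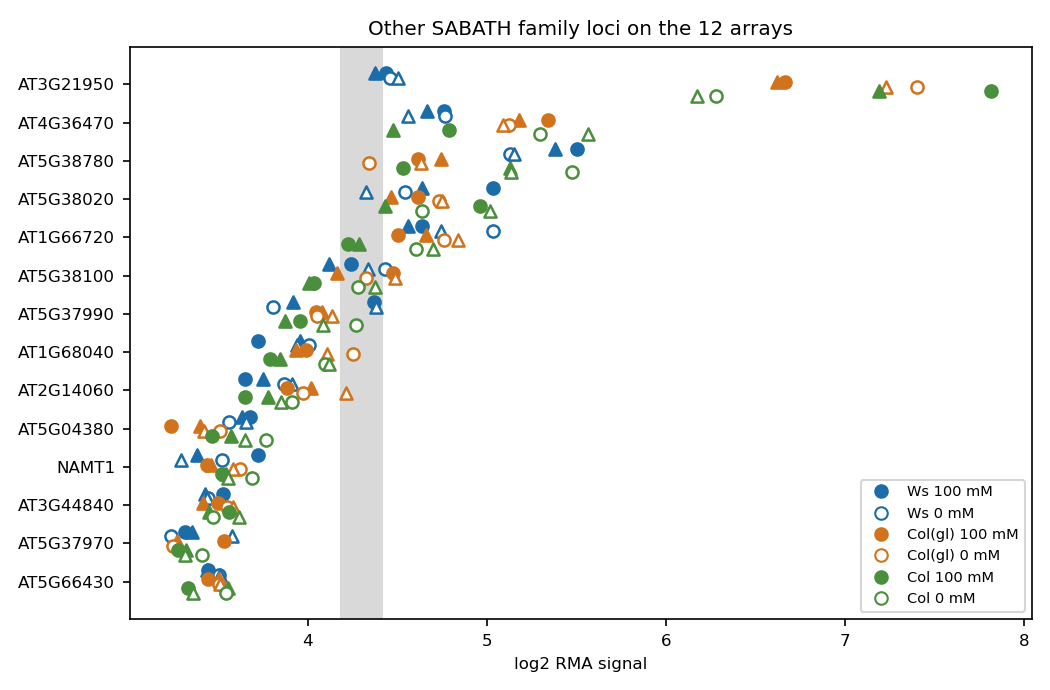
log2 RMA signal of 14 further SABATH loci on the 12 arrays (1 row per locus; filled symbols 100 mM, open symbols 0 mM NaCl; circles replicate 1, triangles replicate 2; colours give the genotype). The grey band spans the lower quartiles of the arrays. AT3G21950 reaches 7.82 in salted Col and stays near the band in Ws, and 7 loci stay at or below the quartile on every array.

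Genes that make, sense or answer jasmonate and salicylate were counted from 10 further lists with 138 members, of which 13 genes on 5 lists were measured under their name. The genes of salicylate synthesis, the MES esterases, the S-adenosylmethionine cycle, jasmonate turnover and the regulators tied to BSMT1 or JMT had no value under their name. The supply of salicylate or of methyl donor thus cannot be read here. For jasmonate, 3 of 23 synthesis genes were measured, and 4 turnover loci had values under another name. These are too few to read its supply. Together with the 14 family loci, 7 of 27 genes were called in Ws (25.9%, beside 16.6% of all probe sets), 3 in Col(gl) (11.1%, beside 1.49%) and 9 in Col (33.3%, beside 37.5%). Some of these genes were known from earlier results of the same arrays and are no independent evidence. PDF1.2 and PDF1.2b, whose near-identical sequences may share probes, are counted as separate genes in all 3 genotypes. In Col(gl) the only other call was MYC3, which ended in 9 of 18 alternative settings.

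On the jasmonate side, genes close to JMT in the pathway went different ways. OPCL1 (AT1G20510), a ligase that prepares the precursor for shortening, rose in Col by 0.91 ± 0.15 (limma, adjusted p = 0.00158), at 10.6 and 10.5 with salt against 9.58 and 9.71 without. It rose by 0.63 ± 0.15 in Ws (limma, adjusted p = 0.0212), a call that ended in 5 of 18 alternative settings. DGL, a lipase, and AIM1, an enzyme of beta-oxidation, were not called in any genotype. In the signalling list 1 of 3 genes rose and 1 fell in Ws (beside 16.6% of all probe sets called) and likewise in Col (beside 37.5%), and 1 rose in Col(gl) (beside 1.49%).

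MYC4 (AT4G17880), a transcription factor that acts beside MYC2 in jasmonate signalling, was called lower with salt in Col and in Ws. It read 6.30 and 5.78 in salted Col against 7.77 and 7.75 in unsalted Col (difference -1.72 ± 0.18, limma, adjusted p = 0.000119). In Ws it read 6.64 and 6.99 with salt against 8.32 and 8.21 without (difference -1.45 ± 0.18, limma, adjusted p = 0.000786). Col(gl) had little of it, 5.54 and 5.44 with salt against 5.22 and 4.97 without (adjusted p = 0.353 in limma). MYC3, a related factor, rose in Col(gl) by 0.53 ± 0.10 (limma, adjusted p = 0.0355), a call that ended in 9 of 18 settings. ORA47, a regulator of jasmonate synthesis genes, rose by 4.04 ± 0.47 in Col (limma, adjusted p = 2e-04) and by 2.06 ± 0.47 in Ws (limma, adjusted p = 0.0161), with salted Ws arrays at 6.50 and 8.40 and a value of 1.12 without replicate 2 of salted Ws. The Ws call ended in 3 of 18 settings.

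The defensins PDF1.2 and PDF1.2b, markers of the jasmonate and ethylene response whose near-identical sequences may share probes, fell in all 3 genotypes. PDF1.2 (AT5G44420) read 7.23 and 7.05 in salted Col, against 10.96 and 10.77 in unsalted Col. PDF1.2b (AT2G26020) changed by -0.98 ± 0.15 in Ws, -2.80 ± 0.15 in Col(gl) and -3.44 ± 0.15 in Col, and the Ws call ended when Col and Col(gl) were left out of the fit (adjusted p = 0.0725 in limma). THI2.1, a thionin, was not called. Of 4 loci of the jasmonate turnover list that the gene table holds under another name, 3 were called higher in Ws by limma (beside 9.16% of all probe sets called higher), 0 in Col(gl) (beside 0.787%) and 2 in Col (beside 16.4%). At an unadjusted p under 0.05, 1 of the 4 passed in Col(gl), beside 14.8% of all probe sets. JRG21 (AT3G55970), listed as jasmonate-regulated gene 21 and named after its values were seen, read 8.10 and 7.23 in salted Ws, against 4.59 and 4.46 in unsalted Ws, and 8.23 and 8.56 in salted Col, against 7.0 and 6.7 in unsalted Col. Like BSMT1 it was lower in unsalted Ws than in unsalted Col. Also named after their values were seen, AT5G05600 rose in Ws by 3.18 ± 0.17 (limma, adjusted p = 6.32e-06) and AT2G38240 by 2.83 ± 0.19 (limma, adjusted p = 2.07e-05). AT3G11180 was not called. None of these 4 loci is among the 27 genes counted above.

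On the salicylate side, UGT76B1 (AT3G11340), a glucosyltransferase that acts on salicylate and related immune signals, was called in Ws and not in Col or Col(gl), and the differences between these responses were not called. It read 5.61 and 7.40 in salted Ws, against 3.84 and 4.24 in unsalted Ws, and rose by 2.46 ± 0.44 (limma, adjusted p = 0.00526), from readings under the quartile. The value was 1.57 without replicate 2 of salted Ws, and the call ended when Col and Col(gl) were left out of the fit, and without replicate 1 of unsalted Ws. In Col it read 4.50 and 4.31 with salt against 4.35 and 4.08 without. UGT74F1, another salicylate glucosyltransferase, stayed between 4.6 and 5.06.

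GRX480 (AT1G28480), a glutaredoxin that binds TGA factors of salicylate signalling, read 9.42 and 8.40 in salted Col, against 6.99 and 6.59 in unsalted Col. It rose by 2.12 ± 0.33 (limma, adjusted p = 0.00104), and by 1.37 ± 0.33 in Ws (limma, adjusted p = 0.0209), a call that ended in 4 of 18 settings. Replicate 1 of salted Col was the higher array for GRX480 and the lower one for BSMT1. SAG101, a partner of immune regulators, was not called in any genotype. Differences of salt responses between genotypes were called for 4 of the 27 genes in Ws minus Col (14.8%, beside 4.66% of all probe sets), 7 in Col(gl) minus Col (25.9%, beside 17.4%) and 4 in Ws minus Col(gl) (14.8%, beside 6.22%). PDF1.2 and PDF1.2b, which may share probes, are both counted in Ws minus Col and in Ws minus Col(gl).

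**Figure D5:**
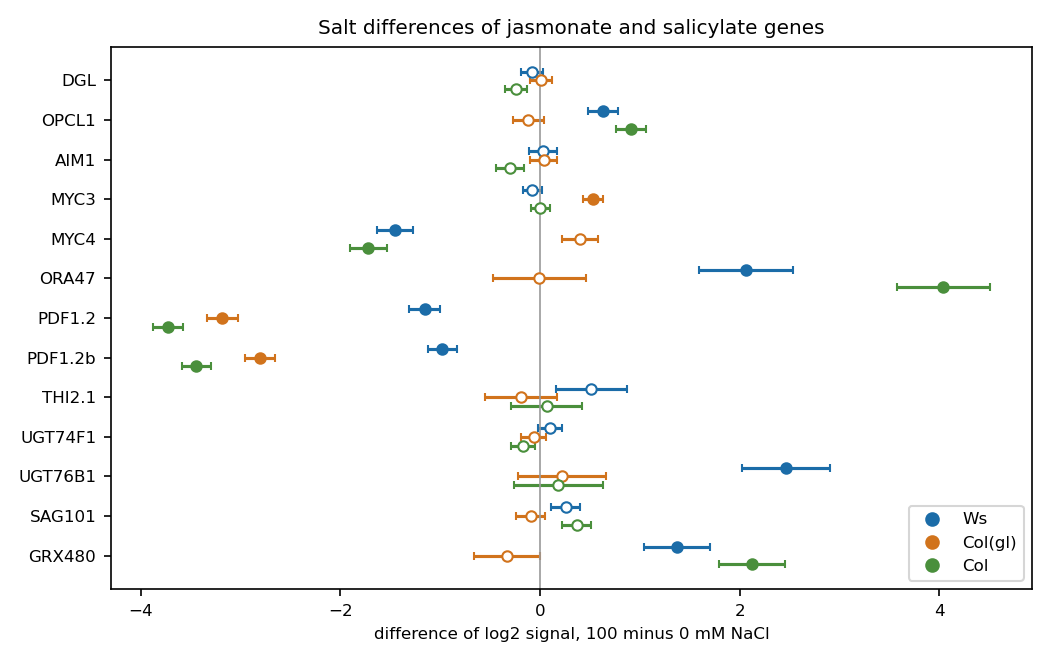
Salt differences (100 minus 0 mM NaCl, log2 scale, with standard errors) of 13 genes of the jasmonate and salicylate lists in each genotype. Filled symbols passed limma at an adjusted p under 0.05 over all probe sets and open symbols did not. MYC4 falls in Ws and Col, and UGT76B1 is called in Ws.

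Of the 5 genes on either side of BSMT1 5 had a value. In Ws 1 of 5 was called (beside 16.6% of all probe sets), and it fell. The probe set of this neighbour is of a type that may match transcripts of further genes. In Col 1 of 5 was called (beside 37.5%), and it rose. In Col(gl) limma called 0 of 5 (beside 1.49%). At an unadjusted p under 0.05 the counts were 2 of 5 in Ws (beside 30.2% of all probe sets), 0 of 5 in Col(gl) (beside 14.8%) and 3 of 5 in Col (beside 48.3%). The differences of these neighbours in Ws lay between -0.54 and 0.41, beside 4.67 for BSMT1. The gene whose annotated span overlaps BSMT1, AT3G11490, changed by -0.03 ± 0.14 in Ws and 0.12 ± 0.14 in Col, and was not called by limma. Of the 10 neighbours of JMT 6 had a value. Limma called 2 of 6 in Ws (beside 16.6% of all probe sets), 0 of 6 in Col(gl) (beside 1.49%) and 1 of 6 in Col (beside 37.5%). With an unadjusted p under 0.05 these were 3 (beside 30.2%), 0 (beside 14.8%) and 1 (beside 48.3%). The adjacent AT1G19650, named after its values were seen, fell by 1.12 in Col (SE 0.15, limma, adjusted p = 0.000389) and by 0.70 in Ws (SE 0.15, limma, adjusted p = 0.011), and PDF1.4, a defensin gene, rose by 0.88 ± 0.18 in Ws (limma, adjusted p = 0.0103).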

How the data were processed

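Per the submitters' processing notes, the authors processed the Affymetrix scans with GCOS and RMA, and the deposited values are log2 signals, 1 per probe set and array, used as they stand. Versions, settings and a genome build are not given in the sources used here. Per the labels, the Col scans are also held under other records. Of 22810 probe sets 64 controls were left out and 22746 tested; the platform annotation gave 1 gene for 13513 probe sets, several for 503 and no gene for 8730. Of the 13513, 13436 matched a RefSeq gene table, used for names and gene order only.

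Models had a mean for each group (lmFit and eBayes of limma 3.58.1, run under R 4.3.3; 6 residual and 3.45 prior degrees of freedom). Standard errors are the fit's, so the gap between the salted Col arrays widens every BSMT1 error. P-values are two-sided, adjusted by Benjamini-Hochberg over all 22746 probe sets. The fit's estimates were checked on simulated data with independent noise around the unsalted Ws means. Those data held no deviations shared between arrays, so the check does not vouch for the calls made here. Replicates have no stated origin in separate plantings, and the number of arrays limits precision. Members and lists were chosen with earlier results of these data known. The rule for names took all SABATH loci and up to 6 called genes per other list. Per member it took the 5 most positively and the 3 most negatively correlated genes. The alternatives tried were a low-signal filter, a block on replicate number, quantile renormalization, a trended robust prior, only the compared groups, leaving out arrays, and Spearman's rho. Sequences of promoters and proteins were not analysed here. Python 3.11.15 with matplotlib 3.10.9 made the plots.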

Additional observations from a re-analysis of the deposited data

Results flagged for a closer look

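JMT is listed because every salted array lay above the unsalted ones in Col(gl) and below them in Col and in Ws. Its salt difference in Col(gl) exceeded that in Col by 1.90, and that in Ws minus that in Col(gl) was -0.55 (log2). Neither was tested, and the Col(gl) arrays were only 0.01 apart at their closest. The share of all probe sets whose 2 salted and 2 unsalted arrays separate in this way was not counted. The listing is therefore a description only.

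Among pathway genes, differences of salt responses passed limma's interaction test as follows, in log2 units. AT3G21950 differed by -1.35 in Ws minus Col (adjusted p = 0.0164) and by -1.95 in Col(gl) minus Col (adjusted p = 0.000929). AT4G36470 differed by 0.85 in Ws minus Col (adjusted p = 0.0475) and by 0.95 in Col(gl) minus Col (adjusted p = 0.0121). In Col(gl) minus Col, OPCL1 differed by -1.03 (adjusted p = 0.0114), GRX480 by -2.45 (adjusted p = 0.00758) and ORA47 by -4.05 (adjusted p = 0.00372). MYC4 differed by 2.12 in Col(gl) minus Col (adjusted p = 0.000724) and by -1.85 in Ws minus Col(gl) (adjusted p = 0.00308). MYC3 differed by 0.53 in Col(gl) minus Col (adjusted p = 0.0285) and by -0.61 in Ws minus Col(gl) (adjusted p = 0.0311). PDF1.2 differed by 2.57 in Ws minus Col (adjusted p = 0.000533) and by 2.03 in Ws minus Col(gl) (adjusted p = 0.000725). PDF1.2b differed by 2.46 in Ws minus Col (adjusted p = 0.00052) and by 1.82 in Ws minus Col(gl) (adjusted p = 0.00096). Contrasts that share a genotype share its arrays.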

How the results depend on the processing

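No salt difference of BSMT1 or JMT changed sign in any setting run. Salted and unsalted arrays did not overlap in any genotype, so leaving out arrays could not change a sign. Only quantile renormalization could have done so. Leaving out 1 array gave 4.41 to 4.93 for BSMT1 in Ws, 0.33 to 2.59 in Col and 0.55 to 0.68 in Col(gl), and -0.50 to -0.19 for JMT in Ws, -1.92 to -1.47 in Col and 0.05 to 0.36 in Col(gl). Quantile renormalization moved BSMT1 in Col(gl) to 0.69 and the median of all probe sets in Col to -0.06 (-0.13 as deposited). Without both replicate 1 arrays of salted Ws and Col, the BSMT1 values were 4.41 in Ws and 2.59 in Col. Called probe sets with only the compared groups in the fit numbered 865 in Ws (3779 with all groups), 1338 in Col(gl) (339) and 265 for Ws minus Col (1061), and called pathway genes 2 in Ws (7). Without both replicate 1 arrays they numbered 1987 in Col(gl), 2525 for Ws minus Col and 2591 for Ws minus Col(gl) (1415 with all arrays). Leaving out 1 array gave 1567 to 5902 calls in Ws, 5263 to 9622 in Col, 28 to 690 in Col(gl), 386 to 2169 for Ws minus Col, 2087 to 5375 for Col(gl) minus Col and 592 to 3551 for Ws minus Col(gl), and 3 to 8, 8 to 10 and 2 to 4 pathway genes called in Ws, Col and Col(gl); the cause was not tested. Of 19 gene responses called, 12 kept their call in all settings run and none changed direction. With the replicate number as a block, 3840 probe sets were called in Ws, 8650 in Col and 270 in Col(gl), and the call of MYC3 in Col(gl) ended (adjusted p = 0.053 in limma). Replicate 1 deviations of salted and unsalted arrays correlated at 0.04 in Ws, -0.02 in Col and -0.35 in Col(gl). Across other groups they reached 0.70 (salted Ws with salted Col) and 0.48 (salted Col(gl) with unsalted Ws). As not every pair exceeded 0.1 and no label ties the numbers, they were not taken as pairs. By Spearman's rho, 3 of the 5 genes most like BSMT1 and 1 of 5 most like JMT stayed among the highest 5. Among genes opposed to BSMT1, GSTF4 ranked 1, SGT1A 3 and ALDH2C4 21.5 by rho. Among those opposed to JMT, GTR1 ranked 6.5, BZIP60 16.5 and COR15B 53. Motif alternatives were not run. The settings for differences of responses, and some for pathway genes, were chosen after seeing the data.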
